A study of Drosophila melanogaster with 5 samples.

Results

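The machinery that fuses synaptic vesicles with the plasma membrane and retrieves them afterwards was followed through 5 single-cell libraries of the *Drosophila* pars intercerebralis (PI). The rule names presynaptic genes by FlyBase symbol. Of its 39 names, *bruchpilot* repeats *brp* and *RIM-BP* repeats *Rbp*, which leaves 37 genes out of 17453 in the deposited tables. All 37 were found, 36 by symbol and *Syd-1* as a synonym of *RhoGAP100F*. They lie on every major arm, with 12 on 3R, 7 on X, 6 each on 2R and 3L, 4 on 2L and 2 on chromosome 4.

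Vesicle release rests on a small set of proteins. A SNARE on the vesicle pairs with SNAREs on the plasma membrane, regulators prepare and hold this complex, and synaptotagmins couple it to calcium at active zones, where scaffolds keep vesicles close to calcium channels. After fusion, NSF and its adaptor take the SNAREs apart, and clathrin, dynamin and their partners retrieve the membrane. Neurosecretory cells such as those of the PI release peptides from dense-core vesicles, which use several of the same fusion proteins away from conventional active zones.

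Each library was made by amplifying the poly(A) RNA of 1 GFP-labeled cell, drawn by pipet from the exposed brain of a live fly. The study saw glial, fat body and photoreceptor transcripts and could not exclude debris of other cells in the pipet. The study kept Cells 1, 2, 3 and 4 and excluded 1 further cell because of how its reads mapped. GFP came from *kurs58-GAL4* with *UAS-mCD8::GFP* or from *C767-GAL4* with *UAS-nlsGFP*, always together with *Dilp2mCherry*, and the labels do not say which driver marked which cell. Both drivers also label cells outside the PI, and the flies' age at capture is not given in the sources used here. The sample labels name a separate animal for each cell, whereas the series text speaks of 4 animals for the 5 cells. Reads assigned to genes numbered 3451331 to 4441952 in the kept cells and 4913151 in the excluded cell. Expression is given as log2(RPM + 1), where RPM stands for the reads of a gene divided by the library's gene-assigned reads and scaled to 1e+06, and 1 RPM is the level from which a gene was counted as expressed. RPM is a share of the library, not an amount per cell, and it is not divided by gene length. Brackets after a level hold its exact Poisson 95% interval and brackets after a ratio its exact conditional binomial 95% interval. These intervals reflect counting error alone. Where no read was found, a limit of 3 reads was taken, which is at most 0.869 RPM in a kept cell and 0.611 RPM in the excluded cell. The Poisson interval of 0 reads reaches further, up to a level of 1.05 in Cell 2, which is just above 1 RPM. Every cell is a single library, so no test was possible between cells.

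Of the 4 matched markers of peptidergic cells, 3 reached 1 RPM in Cell 3, Cell 4 and the excluded cell alike. Cell 1 had 1 such marker and Cell 2 had 2. All 6 PI peptides reached 1 RPM in Cell 3 and the excluded cell, against 3, 4 and 3 in Cells 1, 2 and 4. Among all genes, 17.7% reached 1 RPM in Cell 3 and 40.7% in the excluded cell. The shares for Cells 1, 2 and 4 were 23.7%, 34.5% and 35.1%. The Cell 3 level of *Dh44*, the diuretic hormone gene, was 17.01, compared with 6.81 to 7.43 in Cells 1, 2 and 4 and 8.58 in the excluded cell. The prohormone convertase gene *amon* was at 10.40 in Cell 3, at 0.82 to 6.78 in the other kept cells and at 9.82 in the excluded cell. The peptide-amidating lyase gene *Pal2* was at 7.28 in Cell 3, at most 1.89 in the other kept cells and at 3.63 in the excluded cell. *Ilp2*, which marks the insulin-producing cells the study avoided, was at 10.97 in Cell 3, at 0.29 to 3.84 in the other kept cells and at 7.30 in the excluded cell. *Ms* (11.17 in Cell 3 and 10.25 in the excluded cell), *Ilp3* (5.98 and 3.61) and *Ilp5* (5.17 and 4.57) were also higher in Cell 3. The carboxypeptidase gene *svr* (9.65 in Cell 3 and 9.90 in the excluded cell) and the peptide gene *SIFa* (4.37 and 6.65) were higher in the excluded cell, and *dimm*, a regulator of the peptidergic state, had 0 reads in every cell. The neuronal RNA-binding gene *elav* was at 4.50 in Cell 3, 0.33, 6.95 and 6.36 in Cells 1, 2 and 4, and 9.40 in the excluded cell. Other neuronal markers differed from *elav*, and Cell 3 was the highest kept cell for *fne*, *nrv3*, *Appl*, *CadN*, *futsch* and *Rdl*. It was not the highest for *Ank2*, *onecut*, *nAChRalpha6* and *Nckx30C*. The 11 matched neuronal markers summed to 8968 RPM in Cell 3, against 1360, 3063 and 4172 RPM in Cells 1, 2 and 4.

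Most of the release genes were expressed in every library. At least 1 RPM was reached by 24, 32, 27 and 33 of the 37 genes in Cells 1 to 4 and by 35 in the excluded cell. These are 64.9%, 86.5%, 73.0% and 89.2% of the genes in the kept cells and 94.6% in the excluded cell. Over all genes the shares were 23.7%, 34.5%, 17.7% and 35.1% in the kept cells and 40.7% in the excluded cell. In all 4 kept cells, 19 of the 37 passed, compared with 11.3% of all genes. The same 19 also passed in the excluded cell, and 1914 of all 17453 genes passed in all 5 cells. A further 11 passed in 3 kept cells, 3 in 2, 1 in 1, and 3 in none. The median level of the 37 genes was 3.31, 5.16, 5.69 and 6.12 in Cells 1 to 4, against 9.0 in the excluded cell.

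**Figure D1:**
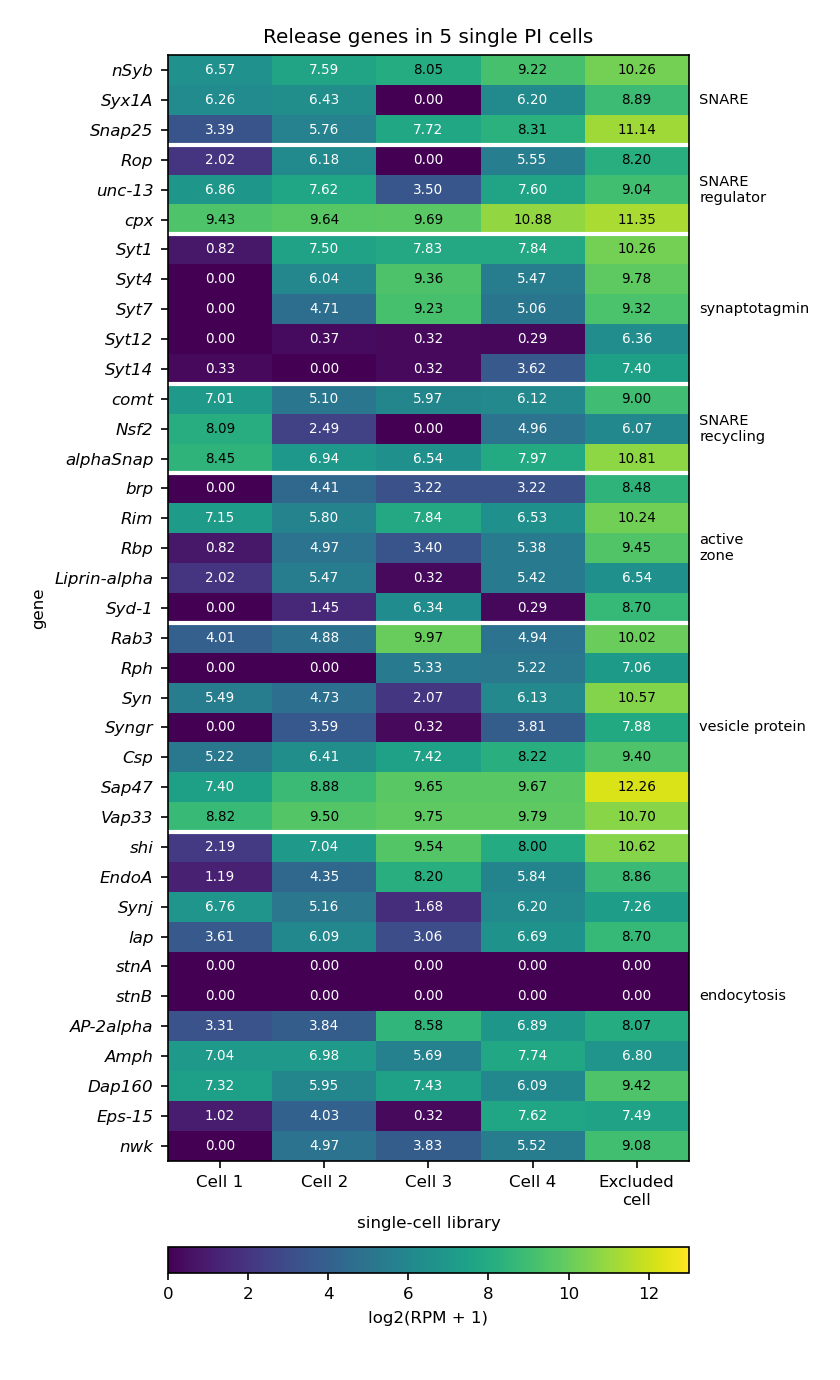
Level of each of the 37 release genes, as log2(RPM + 1), in the 4 kept cells and the excluded cell (columns), with genes grouped by role (rows). The excluded cell holds the highest value of the row for 31 genes, Cell 3 shows 0.00 for *Syx1A*, *Rop* and *Nsf2*, and *stnA* and *stnB* are at 0.00 in every column.

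The excluded cell stood above all 4 kept cells for 31 of the 35 release genes that reached 1 RPM in any cell, or 88.6%. Across all genes that reached 1 RPM in any cell, 37.9% lay above all 4 kept cells in the same way. The exceptions were *Nsf2*, *AP-2alpha*, *Amph* and *Eps-15*. The count depended little on any single kept cell, with 31 or 32 genes when each was left out in turn. It was not stable to the scale, since 10 genes remained above every kept cell when each library was scaled to the reads of 11 neuronal marker genes.

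The 3 SNAREs were present in all libraries with the exception of *Syx1A* in Cell 3. The vesicle SNARE gene *nSyb* (chromosome 3L, 1630348 to 1637752, minus strand) had 367, 660, 1076 and 2642 reads in Cells 1 to 4, against 6001 in the excluded cell. This gave 6.57, 7.59, 8.05 and 9.22 in the kept cells, a mean of 7.86 ± 1.10 (SD, n = 4), and 10.26 in the excluded cell. *Snap25*, which encodes a SNARE of the plasma membrane, had 37, 183, 854 and 1402 reads in Cells 1 to 4, against 11046 in the excluded cell, for 3.39, 5.76, 7.72, 8.31 and 11.14. For both genes Cell 1 was the lowest library and no kept cell reached the excluded cell.

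*Syx1A*, the syntaxin of the plasma membrane (chromosome 3R, 24101600 to 24105763, minus strand), had 297, 294 and 321 reads in Cells 1, 2 and 4, for 6.26, 6.43 and 6.20. The excluded cell had 2324 reads, for 8.89. Cell 3 had 0 reads by both counting methods, which places it at least 643-fold lower than the excluded cell when 3 reads are allowed. The conditional binomial interval of the ratio instead gave at least 522-fold. Cells 1, 2 and 4 thus lay close together, while Cell 3 had no read of this gene. Cell 3 also had the lowest share of all genes at 1 RPM, 17.7%. Of all genes at 1 RPM in any kept cell, 17.5% were at least 4-fold lower in Cell 3 than in every other kept cell.

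Of the 3 regulators of the SNARE complex, *Rop* was without reads in Cell 3 and *cpx* was high in every library. *Rop*, the Sec1/Munc18 protein that binds syntaxin (chromosome 3L, 4136359 to 4138996, minus strand), had 12, 246, 0 and 204 reads in Cells 1 to 4, for 2.02, 6.18, 0.00 and 5.55. The excluded cell had 1435 reads, for 8.20, so Cell 3 was at least 397-fold lower with 3 reads allowed and at least 322-fold lower by the interval of the ratio. *Rop* and its binding partner *Syx1A* were thus both without reads in Cell 3. Complexin, encoded by *cpx* on chromosome 3R (4280221 to 4304604, plus strand), clamps and supports the assembled SNAREs. It had 2689, 2756, 3356 and 8372 reads in the kept cells and 12785 in the excluded cell, for 9.43, 9.64, 9.69, 10.88 and 11.35. Its spread over the kept cells was small, at 9.91 ± 0.66 (SD, n = 4).

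*unc-13*, which primes vesicles for fusion (chromosome 4, 867824 to 912331, minus strand), had 452, 674, 42 and 859 reads in Cells 1 to 4, against 2579 in the excluded cell. The levels were 6.86, 7.62, 3.5 (3.07 to 3.90) and 7.6 in the kept cells and 9.04 in the excluded cell. The low value of Cell 3 depends on how overlapping genes are counted. MMQuant placed 676 further reads of Cell 3 on both *unc-13* and an antisense RNA gene of the opposite strand, *asRNA:CR43425*. With all shared reads given to *unc-13*, the levels were 6.45, 7.25, 7.27 and 7.93 in Cells 1 to 4, against 10.77 in the excluded cell, and Cell 3 no longer stood apart. The libraries are unstranded, so the reads of the 2 genes cannot be told apart.

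No synaptotagmin reached 1 RPM in Cell 1 by the STAR count, whereas Cell 3 came near the excluded cell for *Syt4* and *Syt7*. *Syt1*, the calcium sensor of fast release (chromosome 2L, 2772327 to 2799979, minus strand), had 3, 620, 923 and 1010 reads in Cells 1 to 4, against 6027 in the excluded cell. Its level was 0.82 in Cell 1, between 7.5 and 7.84 in Cells 2, 3 and 4, and 10.26 in the excluded cell. MMQuant gave *Syt1* 16 reads in Cell 1, or 3.37 RPM, which passes the threshold that the STAR count missed. *Syt4*, known in flies for signaling from muscle back to the nerve terminal, had 0, 224, 2680 and 193 reads in the kept cells and 4328 in the excluded cell. *Syt7*, a calcium-binding synaptotagmin, had 0, 87, 2440 and 144 reads in the kept cells and 3138 in the excluded cell.

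For *Syt4* and *Syt7* the order was the same. Cell 3 was at 9.36 and 9.23, Cells 2 and 4 between 4.71 and 6.04, Cell 1 at 0.00, and the excluded cell at 9.78 and 9.32. Cell 3 had 0.746 times (0.711 to 0.783) the *Syt4* RPM of the excluded cell and 0.937 times (0.888 to 0.988) its *Syt7* RPM. *Syt12* had at most 1 read in each kept cell and 399 in the excluded cell, for 6.36. *Syt14* had 50 reads in Cell 4, for 3.62, at most 1 read in the other kept cells and 823 in the excluded cell, for 7.40.

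The genes that take SNAREs apart after fusion were expressed throughout, apart from *Nsf2* in Cell 3. *comt*, which encodes the NSF ATPase, had 502, 115, 251 and 305 reads in Cells 1 to 4, for 7.01, 5.10, 5.97 and 6.12, and 2515 in the excluded cell, for 9.0. *alphaSnap*, the adaptor of NSF, was at 8.45, 6.94, 6.54 and 7.97 in the kept cells and at 10.81 in the excluded cell. *Nsf2*, the paralog of *comt*, had 1066, 16, 0 and 134 reads in Cells 1 to 4, for 8.09, 2.49, 0.00 and 4.96, and 326 in the excluded cell, for 6.07. It was the single member for which a kept cell, Cell 1, was more than 4-fold above the excluded cell, with a difference of 2.02.

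Scaffolds of the active zone differed among themselves in the kept cells. *brp*, the core protein of the fly T-bar, had 0, 70, 34 and 37 reads in Cells 1 to 4, against 1751 in the excluded cell. Its level was 0.00, 4.41, 3.22 and 3.22 in the kept cells and 8.48 in the excluded cell. *Rbp*, the RIM-binding protein that ties calcium channels to the scaffold, had 3, 105, 39 and 180 reads in the kept cells and 3434 in the excluded cell, for 0.82, 4.97, 3.4, 5.38 and 9.45. For both genes every kept cell was more than 4 units on the log2 scale below the excluded cell.

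*Rim*, a scaffold that binds Rab3, was higher in the kept cells. It had 552, 189, 930 and 405 reads in Cells 1 to 4, for 7.15, 5.80, 7.84 and 6.53, and 5956 in the excluded cell, for 10.24. *Syd-1*, which starts the assembly of active zones, was at 6.34 in Cell 3 on 327 reads and at 0.00, 1.45 and 0.29 in Cells 1, 2 and 4, with 8.70 in the excluded cell. *Liprin-alpha*, its partner in assembly, showed the opposite among the kept cells. It had 1 read in Cell 3 and 12, 149 and 186 in Cells 1, 2 and 4, for 0.32, 2.02, 5.47 and 5.42, and 453 in the excluded cell, for 6.54.

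Among the proteins of the vesicle itself, *Rab3* set Cell 3 apart from the other kept cells. This small GTPase of the vesicle surface had 4093 reads in Cell 3 and 59, 98 and 132 in Cells 1, 2 and 4, for 9.97, 4.01, 4.88 and 4.94. The excluded cell had 5098 reads, for 10.02, and Cell 3 had 0.967 times its RPM, with an interval of 0.928 to 1.01 that includes equality. *Rph*, the rabphilin that binds Rab3, had 0, 0, 160 and 161 reads in Cells 1 to 4, for 5.33 (5.10 to 5.55) in Cell 3 and 5.22 (4.99 to 5.44) in Cell 4, and 650 in the excluded cell, for 7.06. MMQuant gave *Rph* 61 reads in Cell 3 and 194 in Cell 4, against 716 in the excluded cell, which turned the order of Cells 3 and 4 and moved the difference between Cell 3 and the excluded cell to -3.26, against -1.73 by the STAR count.

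*Syn*, the synapsin that holds vesicles in clusters (chromosome 3R, 10190689 to 10222442, plus strand), went the other way. Cell 3 had 13 reads, for 2.07 (1.43 to 2.69), and Cells 1, 2 and 4 had 172, 88 and 307, for 5.49, 4.73 and 6.13. The excluded cell had 7457 reads, for 10.57, so its RPM was 476 times (278 to 894) that of Cell 3. *Syngr*, the synaptogyrin of the vesicle membrane, had 0, 38, 1 and 58 reads in Cells 1 to 4, against 1152 in the excluded cell, for 0.00, 3.59, 0.32, 3.81 and 7.88. *Syn* and *Syngr* were therefore low in Cell 3, where *Rab3* was high.

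The remaining vesicle genes were more even. *Vap33*, a membrane protein of the endoplasmic reticulum that contacts other membranes, had 1768, 2504, 3518 and 3933 reads in Cells 1 to 4, for 9.47 ± 0.45 (SD, n = 4), and 8171 in the excluded cell, for 10.70. Of the 19 genes expressed in all kept cells, it had the smallest spread. *Sap47*, a synapse-associated protein, was at 7.40, 8.88, 9.65 and 9.67 in the kept cells and at 12.26 in the excluded cell, on 24150 reads. *Csp*, the cysteine string protein that keeps Snap25 folded, was at 5.22, 6.41, 7.42 and 8.22 in the kept cells and at 9.40 in the excluded cell.

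Of the genes of membrane retrieval, *shi*, *EndoA* and *AP-2alpha* were high in Cell 3 and *AP-2alpha* alone exceeded the excluded cell. *shi*, the dynamin that cuts vesicles free, had 14, 452, 3037 and 1133 reads in Cells 1 to 4, for 2.19, 7.04, 9.54 and 8.0, and 7709 in the excluded cell, for 10.62. *EndoA*, the endophilin that bends membrane, had 5, 67, 1193 and 250 reads in the kept cells, for 1.19, 4.35, 8.20 and 5.84, and 2282 in the excluded cell, for 8.86. *AP-2alpha*, the large subunit of the clathrin adaptor, had 1558 reads in Cell 3 and 35, 46 and 522 in Cells 1, 2 and 4, and 1317 in the excluded cell. Its level of 8.58 in Cell 3 was above the 8.07 of the excluded cell, with 1.43 times (1.32 to 1.54) the RPM. All 3 genes had Cell 3 as the highest of the kept cells.

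Other retrieval genes were low in Cell 3. *Synj*, the synaptojanin that strips clathrin coats, had 9 reads in Cell 3 and 420, 120 and 323 in Cells 1, 2 and 4, for 1.68, 6.76, 5.16 and 6.20, and 750 in the excluded cell, for 7.26. *lap*, the fly AP180 that recruits clathrin, was at 3.06 in Cell 3, at 3.61, 6.09 and 6.69 in Cells 1, 2 and 4, and at 8.70 in the excluded cell. *Eps-15*, an endocytic scaffold, had 1 read in Cell 3 and 4, 53 and 872 in Cells 1, 2 and 4, with 876 in the excluded cell. Cell 4 and the excluded cell were close for *Eps-15*, at 7.62 and 7.49.

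*Amph*, *Dap160* and *nwk* complete the group. *Amph*, the amphiphysin known in flies chiefly for muscle membranes, had 513, 431, 206 and 946 reads in Cells 1 to 4, for 7.04, 6.98, 5.69 and 7.74, and 544 in the excluded cell, for 6.80, which lay inside the range of the kept cells. *Dap160*, the intersectin scaffold, was at 7.32, 5.95, 7.43 and 6.09 in the kept cells and at 9.42 in the excluded cell. *nwk*, a membrane-bending partner of *Dap160*, was at 0.00, 4.97, 3.83 and 5.52 in the kept cells and at 9.08 in the excluded cell.

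*stnA* and *stnB* had 0 reads in every STAR count. The annotation gives both genes the same span on chromosome X (22980722 to 23004648, minus strand), and flies make both stoned proteins from a single dicistronic transcript. MMQuant gave no read to either gene alone. It placed 61, 68, 1526 and 255 reads of Cells 1 to 4 and 5132 of the excluded cell on the pair. On the MMQuant total these reads came to 3.79, 3.98, 8.40 and 5.70 in the kept cells and 9.95 in the excluded cell. The locus was thus expressed above 1 RPM in all 5 libraries, with Cell 3 the highest of the kept cells.

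Shared reads touched few other members. With *eIF4EHP*, which lies on the same strand, *Syx1A* shared 0, 20, 0 and 179 reads in the kept cells, against 1522 in the excluded cell. *Syn* shared 26, 130 and 48 reads in Cells 1, 2 and 4 with *Timp*, a gene of the opposite strand, and 0 in Cell 3 and the excluded cell. Neither changed which cell was lowest, since Cell 3 stayed at 0.00 for *Syx1A* and at 1.95 for *Syn* with all shared reads added.

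**Figure D2:**
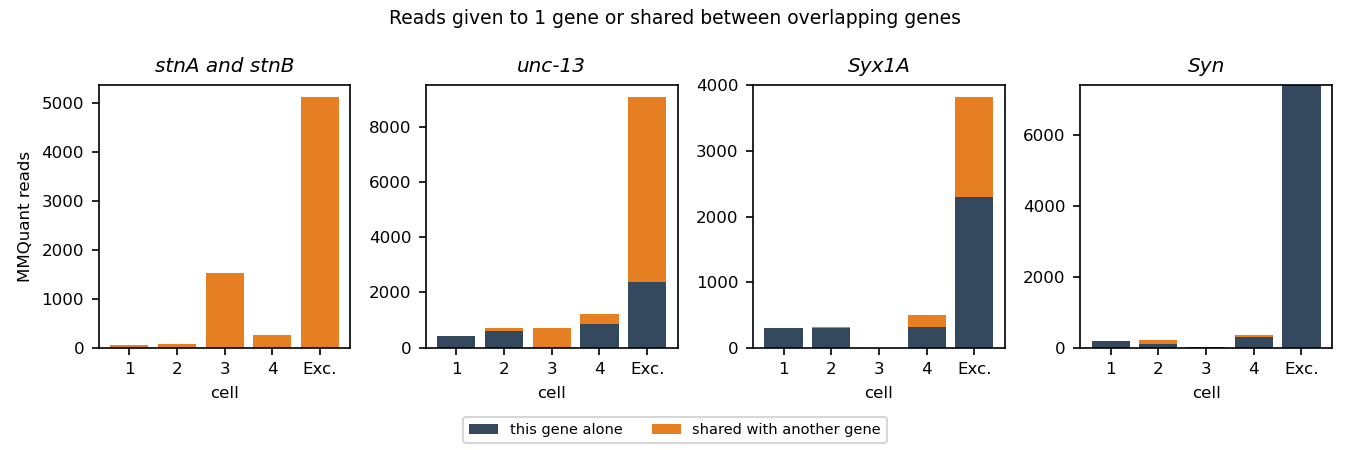
MMQuant reads (y axis, linear, its own scale in each panel) given to a gene alone (dark) or shared with an overlapping gene (orange) in Cells 1 to 4 and the excluded cell (x axis). All reads of *stnA* and *stnB* are shared between them, Cell 3 holds 19 unshared and 676 shared reads for *unc-13*, and no read for *Syx1A*.

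Set directly against the excluded cell, Cell 3 was lower for most release genes, as it was for most genes. Of the 35 release genes at or above 1 RPM in either of the 2 cells, 34 were lower in Cell 3, against 79.3% of all genes, and *AP-2alpha* was higher. On the scale of the neuronal markers 27 were lower. With all uniquely mapped reads in the denominator, *Rab3* (0.16) and *Syt7* (0.12) also turned higher in Cell 3. A difference of 2 on the log2 scale, or 4-fold, was passed by 23 genes downward and by 0 upward. The 23 genes are 65.7% of the 35, while 58.9% of the 7328 genes that passed the same filter were 4-fold lower in Cell 3 and 10.2% were 4-fold higher. The median difference of the release genes was -3.04, against -2.63 over all genes. The share of release genes called lower was near the share of all genes, so nothing particular to the release genes is read from it. *Dap160* (-1.99) and *Csp* (-1.98) lay just inside the 4-fold limit and *nSyb* (-2.21) just beyond it.

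The 6 genes with the largest differences were *Syx1A* (-8.89), *Syn* (-8.50), *Rop* (-8.20), *Syngr* (-7.56), *Eps-15* (-7.17) and *Syt14* (-7.08), each with 0 to 13 reads in Cell 3. Sizes and order at so few reads depend on the pseudocount, and with 0.1 RPM in place of 1 RPM *Nsf2* (-9.38) entered the 6 and *Syn* (-8.85) left. At the other end, *AP-2alpha* (0.51), *Rab3* (-0.05), *Syt7* (-0.09), *Syt4* (-0.42), *EndoA* (-0.66) and *Vap33* (-0.95) differed by less than 2-fold. By role, 5 of 5 active zone genes, 3 of 3 SNAREs and 3 of 3 genes of SNARE recycling were 4-fold lower in Cell 3. The counts were 2 of 3 regulators, 3 of 5 synaptotagmins, 3 of 7 vesicle proteins and 4 of the 9 retrieval genes that passed the filter. Over all genes 58.9% were 4-fold lower, and the groups are too small to tell their shares from it or from each other.

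**Figure D3:**
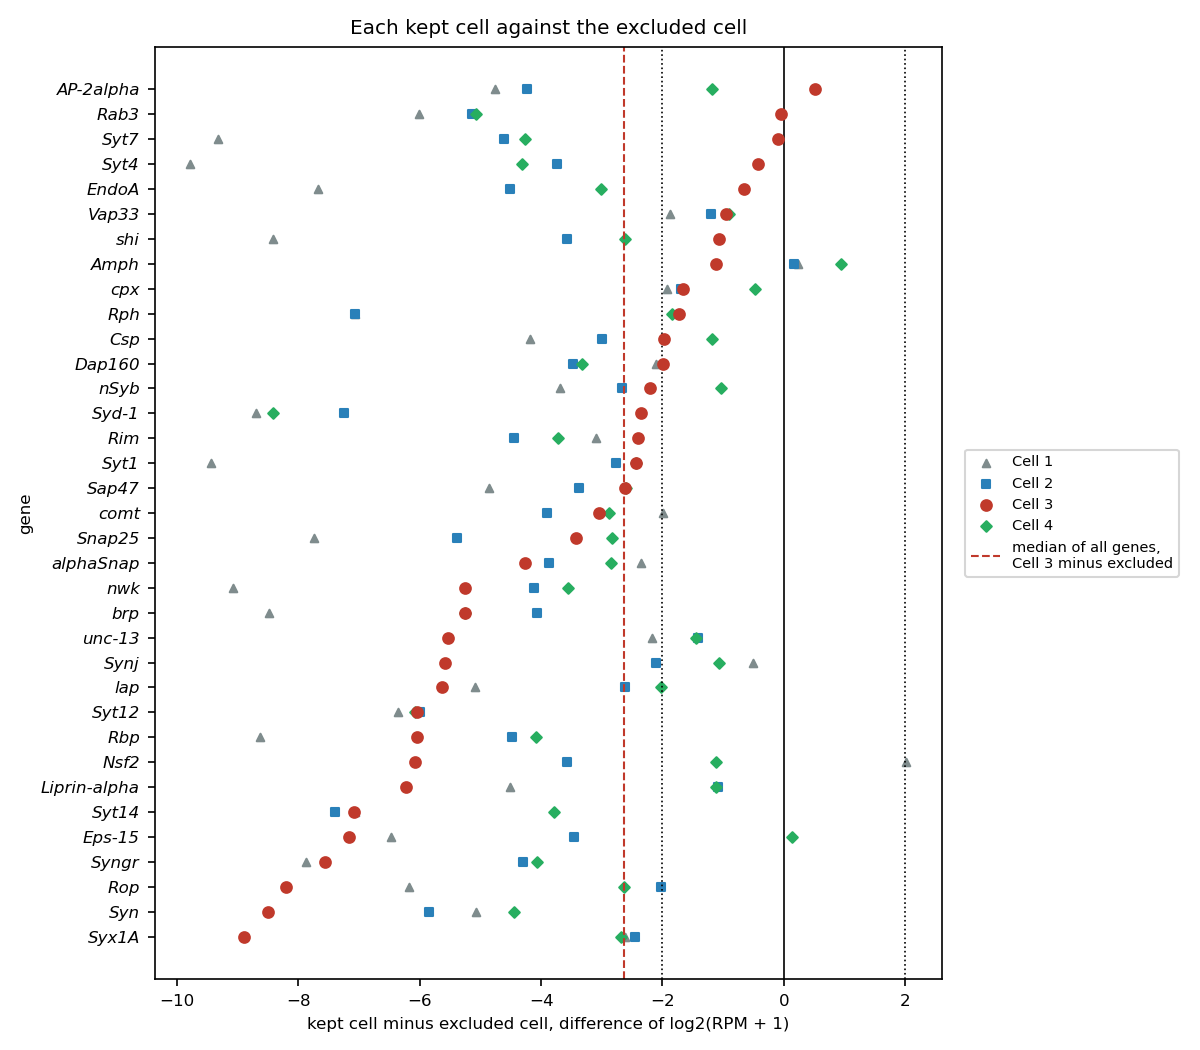
Difference in log2(RPM + 1) between each kept cell and the excluded cell (x axis) for the 35 release genes at or above 1 RPM in Cell 3 or the excluded cell (rows), ordered by Cell 3. Dotted lines mark a 4-fold difference and the dashed line the median of all genes for Cell 3 (-2.63). Cell 3 runs from -8.89 for *Syx1A* to 0.51 for *AP-2alpha*.

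On the RPM scale the share of release genes called lower in each other kept cell was above that of all genes. On the scale of the neuronal markers it was above that of all genes in Cell 1, near it in Cell 2 and below it in Cell 4. Median differences on the marker scale were -1.03, -0.82 and -0.15 in Cells 1, 2 and 4, against 0.7, 1.89 and 1.69 over all genes. By RPM, 29 of 35 release genes were 4-fold lower in Cell 1 (82.9%, against 50.0% of all genes) and 1 was 4-fold higher (17.4% of all genes). In Cell 2 the counts were 30 of 35 lower (85.7%, against 34.6%) and 0 higher (20.5%). In Cell 4 they were 23 of 35 lower (65.7%, against 31.6%) and 0 higher (20.7%). For Cells 1, 2 and 4 the median differences were -5.09, -3.74 and -2.69, against -2.0, -0.92 and -0.67 over all genes. All 4 comparisons share the excluded cell, so they are not independent of each other.

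Within the kept cells, Cell 3 held both the highest and the lowest values of the release genes. It was the highest kept cell for 10 of the 34 genes expressed in any kept cell (29.4%, against 16.6% of all genes) and the lowest for 11 (32.4%, against 34.9%). The 10 were *Syt4*, *Syt7*, *Rim*, *Syd-1*, *Rab3*, *Rph*, *shi*, *EndoA*, *AP-2alpha* and *Dap160*. For *Rph* this rests on 160 against 161 reads with overlapping intervals, and MMQuant put Cell 3 below Cell 4. Cell 3 exceeded every other kept cell at least 4-fold for 5 of them, *EndoA*, *Rab3*, *Syd-1*, *Syt4* and *Syt7*, which is 14.7%, against 7.01% of all genes. It was at least 4-fold below every other kept cell for 6 genes, *Nsf2*, *Rop*, *Syn*, *Synj*, *Syx1A* and *unc-13*, which is 17.6%, against 17.5% of all genes. The second share matches the background, and *unc-13* leaves the list when shared reads are added.

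Other genes of the presynapse, fixed as a list of 29 with earlier results of these data known, were used as a companion set. At least 1 RPM was reached by 20, 25, 23 and 26 of them in Cells 1 to 4 and by 28 in the excluded cell, where the shares of all genes were 23.7%, 34.5%, 17.7%, 35.1% and 40.7%. Between Cell 3 and the excluded cell, 16 were 4-fold lower (55.2%, against 58.9% of all genes) and 1 was 4-fold higher (3.45%, against 10.2%), with a median of -2.59, against -2.63 over all genes. The share called lower and the median were thus near those of all genes. Those with the largest differences were *Nrx-1*, the neurexin (1.98 in Cell 3 and 9.41 in the excluded cell), *Arf6* (0.32 and 7.46), *X11L* (0.32 and 7.36) and *aux*, the auxilin (0.00 and 5.51). The calcium channel gene *cac*, named after its values were seen, was at 6.75 in Cell 3, at 1.61, 5.04 and 7.55 in Cells 1, 2 and 4, and at 10.52 in the excluded cell.

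Some others of these genes, also chosen after their values were seen, shared the pattern of *Rab3*. *Sytbeta* had 1558 reads in Cell 3, 1, 2 and 2 in Cells 1, 2 and 4, and 1329 in the excluded cell. *Fife*, an active zone protein related to Rim, had 1914 reads in Cell 3, 1, 138 and 41 in Cells 1, 2 and 4, and 2733 in the excluded cell. *unc-104*, the kinesin that carries vesicle precursors along axons, was at 9.38 in Cell 3, at 3.16, 7.21 and 6.48 in Cells 1, 2 and 4, and at 9.97 in the excluded cell. In each case Cell 3 was more than 2 units above every other kept cell and less than 1 unit from the excluded cell.

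Genes of constitutive membrane fusion, which serve all cells, differed less in their summed level, but not gene by gene in Cell 3. Of 22 matched genes, 12, 18, 9 and 20 reached 1 RPM in Cells 1 to 4, against 21 in the excluded cell, beside the same shares of all genes, of which Cell 3 had the lowest. Their summed level was 622, 837, 952 and 1082 RPM in the kept cells and 1279 RPM in the excluded cell. In Cell 3, *Syb* and *Vti1b*, both chosen after their values were seen, held 1314 and 1953 of the 3880 summed reads. In this cell 12 of the 22 genes had 0 reads. Between Cell 3 and the excluded cell, 13 of the 21 genes that passed the filter were 4-fold lower (61.9%, against 58.9% of all genes). A further 3 were 4-fold higher (14.3%, against 10.2%). The median difference was -3.69, against -2.63 over all genes. Cell 3 had 0 reads for *gammaSnap1*, *Syx6*, *Bet1* and *Syx5*, whose differences from the excluded cell ranged from -7.63 to -6.18. *Syb*, the synaptobrevin of other tissues and the paralog of *nSyb*, was chosen after its values were seen. It had 823, 552, 1314 and 732 reads in the kept cells, for 7.72, 7.33, 8.34 and 7.37, and 40 in the excluded cell, for 3.19. The excluded cell thus had the highest *nSyb* and the lowest *Syb* of the 5 libraries.

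The summed level of the 37 release genes was highest in the excluded cell, as was that of the neuronal markers. It was 3018, 3816, 7816 and 7220 RPM in Cells 1 to 4, a mean of 5467 ± 2402 (SD, n = 4), and 30065 RPM in the excluded cell. As shares of the gene-assigned reads these were 0.302%, 0.382%, 0.782% and 0.722% in the kept cells and 3.01% (2.99% to 3.02%, Wilson 95%) in the excluded cell. The 11 matched neuronal markers, all with reads in every cell, summed to 1360, 3063, 8968 and 4172 RPM in the kept cells and 24629 RPM in the excluded cell. In Cell 1, 8 of the 11 reached 1 RPM (23.7% of all genes), and in each other cell all 11 did (17.7% to 40.7% of all genes). In Cell 3, *fne*, *nrv3* and *Appl* held 7744, 8106 and 14292 of the 36564 marker reads, so the marker scale rests largely on them there. Single markers differed between Cell 3 and the excluded cell by -0.15 (*Appl*) to -5.35 (*Nckx30C*).

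Photoreceptor, fat body and glial transcripts also differed between the libraries. The 13 photoreceptor markers summed to 14563, 17072, 1989 and 48568 RPM in Cells 1 to 4 and 1350 RPM in the excluded cell. Of them, 13, 12, 10, 13 and 11 reached 1 RPM, beside 23.7%, 34.5%, 17.7%, 35.1% and 40.7% of all genes. The 9 matched fat body markers summed to 45879, 39426, 9894 and 17950 RPM in the kept cells and 1023 RPM in the excluded cell. Of these, 7, 7, 5 and 7 reached 1 RPM in the kept cells and 7 in the excluded cell, beside the same shares of all genes. *Fbp1* and *Fbp2* had 0 reads in all 5. The 10 glial markers summed to 2275, 4310, 904 and 6161 RPM in the kept cells and 1775 RPM in the excluded cell. The defining glial gene *repo* had 1, 0, 0 and 300 reads in the kept cells, against 37 in the excluded cell. The 7 matched markers of hemocytes and muscle summed to 128 to 519 RPM in the kept cells and 14.5 RPM in the excluded cell. Photoreceptors are themselves neurons with synapses, and the part of these other cells in the levels of the release genes was not tested.

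**Figure D4:**
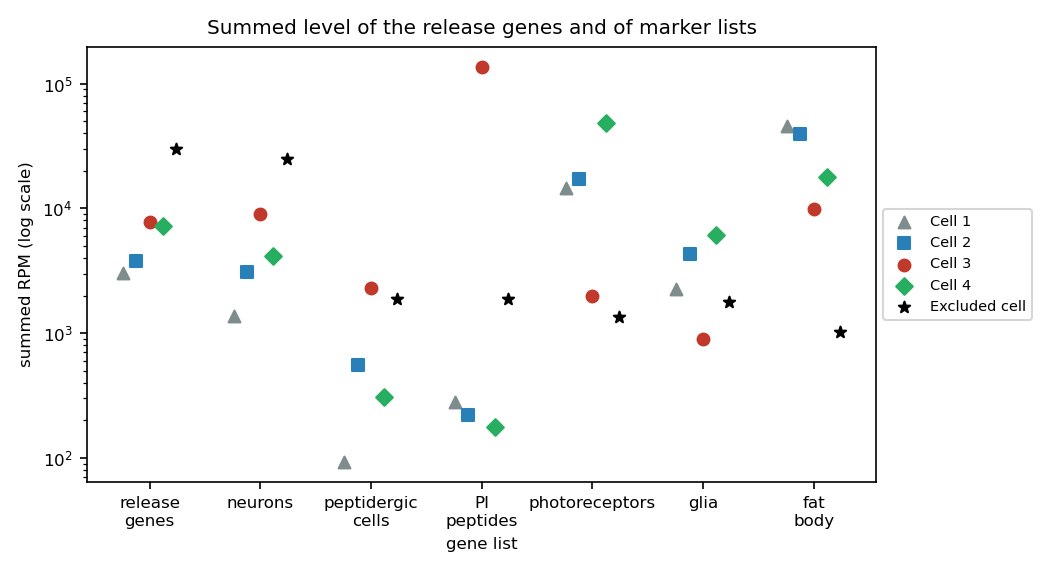
Summed RPM (y axis, log scale) of the 37 release genes and of 6 marker lists (x axis) in each of the 5 libraries (symbols). The excluded cell is highest for release genes (30065 RPM) and neuronal markers (24629 RPM) and lowest for fat body markers (1023 RPM), and Cell 3 is highest for PI peptides.

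Measured against the neuronal markers, the difference between the libraries shrank. Reads of release genes per read of the 11 neuronal markers were 2.22, 1.25, 0.872 and 1.73 in Cells 1 to 4, a mean of 1.52 ± 0.59 (SD, n = 4), and 1.22 in the excluded cell, which lay inside the range of the kept cells. Cell 3 had the lowest ratio. On this scale, chosen after the values were seen, 16 of 35 release genes were 4-fold lower in Cell 3 than in the excluded cell (45.7%, against 52.5% of all genes) and 0 were higher (17.3% of all genes). The median difference was -1.59, against -2.22 over all genes. The 16 were among the 23 of the main scale. In Cell 1, 16 of 35 were lower (45.7%, against 35.2% of all genes) and 7 higher (44.0% of all genes). In Cell 2, 7 were lower (20%, against 19.3%) and 1 higher (48.9%), and in Cell 4, 4 were lower (11.4%, against 18.8%) and 3 higher (45.8%). The 10 genes that stayed above every kept cell in the excluded cell were *Rbp*, *Sap47*, *Snap25*, *Syd-1*, *Syn*, *Syngr*, *Syt12*, *Syt14*, *brp* and *nwk*, which is 10 of 35 release genes, against 16.1% of all genes.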

How the data were processed

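The authors amplified the RNA of each cell in 3 rounds, sequenced 100 bp single-end reads, trimmed them with Trim Galore and PRINSEQ, and mapped them to dm6 with STAR, as the methods of the study give it. The deposited counts are whole numbers of reads per gene without normalization, from STAR (1 unstranded column, used here, and 2 stranded columns) and from MMQuant, which gives a read on overlapping genes to the group. Tool versions are not given in the sources used here. Oligo(dT) priming places reads near 3' ends, so genes that overlap there lose reads in the STAR count.

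RPM was computed from the unstranded STAR count with gene-assigned reads as the denominator, leaving out the 4 totals of unassigned reads. Expression was log2(RPM + 1), with a threshold of 1 RPM, as in the study. Gene-assigned totals ranged from 3451331 to 4913151, where 1 read is 0.204 to 0.290 RPM. Uniquely mapped reads were 60.4% to 85.5% of trimmed reads in the kept cells and 92.6% in the excluded cell. The column headers of the MMQuant tables number the cells differently from the labels, and each table correlated best with the STAR table of its own sample (Pearson r across genes of log counts 0.974 to 0.982, against at most 0.813 with another sample).

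Between Cell 3 and the excluded cell, genes at or above 1 RPM in either were compared, a log2 difference of 2 was the limit, and ratios were given exact conditional binomial 95% intervals. With 1 library on each side no test was run. The code for the 4-fold calls was tested on simulated counts with larger changes planted in well-covered genes and counting error alone. That check covers neither changes near the 4-fold limit, nor genes with few reads, nor noise from amplification. The members and lists were chosen with earlier results of these data known. All members could be named. Given in full were the core fusion genes, the 6 with the largest differences, those in all 5 cells or in none, and those with 1 kept cell far from the rest. Of the companion lists, at most 4 genes were named by the size of their difference, and others are marked in the text. *para* of the neuronal list, *Phm* and *Pal1* of the peptidergic list, *FASN1* of the fat body list, *wupA* of the muscle list and *Syx7* of the fusion list were not matched to a gene identifier and were left out, as was a second name of *Snap29*.

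The alternatives were other denominators and counts, thinning to 3451331 reads, thresholds of 10 RPM, 100 RPM and 1 read, a pseudocount of 0.1 RPM, a 2-fold limit, other filters, centring, a neuronal marker scale, and leaving out each kept cell. Positions come from the Ensembl annotation of BDGP6, whose coordinates are those of dm6. The calculations used Python 3.11.15, numpy 2.4.6, pandas 2.3.3, scipy 1.17.1 and matplotlib 3.10.9.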

Additional observations from a re-analysis of the deposited data

Results flagged for a closer look

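Over the 4 kept cells, 4 of the 35 release genes with any spread had 1 cell far from the rest, meaning that its gap to the nearest cell took up most of the range, past the 95% limit of Dixon's test. That limit flags about 1 in 20 genes if the values are normally distributed, which levels that include 0.00 need not be. The same share over all genes is not given, so no excess over chance is read from the 4. *Syx1A* was at 0.00 in Cell 3, against 6.20 in the nearest cell. *Rab3* was at 9.97 in Cell 3, against 4.94. *Syt1* was at 0.82 in Cell 1, against 7.5. *Syt14* was at 3.62 in Cell 4, against 0.33.

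The MMQuant reads shared by *stnA* and *stnB*, which no STAR count holds, were above the limit that 0 reads allows in every library. Cells 1 to 4 had 61, 68, 1526 and 255 of them, and the excluded cell had 5132.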

How the results depend on the processing

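The counts of release genes at or above 1 RPM stayed within 1.5 times the reported value under other denominators, other counts, thinning, a threshold of 10 RPM and at least 1 read. A threshold of 100 RPM left 11, 9, 15 and 14 genes in Cells 1 to 4. The 19 genes in all 4 kept cells became 12 at 10 RPM and 3 at 100 RPM, and ranged from 19 to 25 when each kept cell was left out. The 23 genes that were 4-fold lower in Cell 3 numbered 22 to 25 under the other denominators and counts and 29 at 2-fold, with *nSyb* lost on all uniquely mapped reads and *Csp* and *Rph* gained with MMQuant, and the 0 that were higher stayed at 0 with these. Cell 1 in place of Cell 3 gave 1. Scaling to the neuronal markers moved the median difference to -1.59 and the number of genes highest in the excluded cell to 10, a scale chosen after the values were seen, and put the summed level at 54651, 30681, 21464 and 42615 RPM in Cells 1 to 4, in units of the excluded cell. Divided by every uniquely mapped read, the sum was 5298 RPM in Cell 3, 4150 RPM in Cell 4 and 17605 RPM in the excluded cell. In the excluded cell it was 28394 RPM from the stranded counts, 27485 RPM from MMQuant reads of a gene alone and 31047 RPM with shared reads added. The number of genes highest in the excluded cell was 31 to 32 without each kept cell in turn. Of the called single-gene differences, 0 changed sign under the alternatives, but sizes could move. The pseudocount of 0.1 RPM took *Syx1A* from -8.89 to -12.21 and *Nsf2* from -6.07 to -9.38. MMQuant took *Rph* from -1.73 to -3.26, and shared reads took *unc-13* from -5.54 to -3.50. No paired analysis was possible because there is 1 excluded cell. With 3 reads allowed, depth limits genes with 0 reads to at most 0.869 RPM, and losses before amplification are not covered.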
